A study of Xenopus laevis with 28 samples.

Results

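The matrix metalloproteases are zinc enzymes that cut the proteins of the extracellular matrix, among them collagens, gelatins, laminins and fibronectin. Most are secreted, and a few are held at the cell surface by a membrane anchor. They are made as inactive proenzymes whose propeptide must be removed, and they are held in check by the tissue inhibitors of metalloproteases and by the blood protein alpha-2-macroglobulin. In the tadpole they are known for the remodelling of tail, gut and skin at metamorphosis. In adult tissue they are known from leukocytes, from turnover of connective tissue and from repair.

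The genes described here were picked by symbol as family members with their tissue levels known, so they were chosen on measured values and their levels by tissue are given as a description without a test. The list held 10 symbols, mmp1, mmp2, mmp7, mmp9, mmp11, mmp13, mmp14, mmp28, timp2 and timp3. Rows were found for 8 of them, as 14 of the 45831 gene models of the table. The inhibitors timp2 and timp3 were not analysed here, so the values below are of proteases. Because the frog is an allotetraploid, most genes exist as a copy on a long chromosome (L) and a copy on its short partner (S). Models with an L and an S symbol were found for mmp1, mmp7, mmp9, mmp11, mmp14 and mmp28. For mmp2 and mmp13 only an S symbol was found. Of the 14 models, 12 reached 1 TPM, the unit of length-normalized transcript share used throughout, in at least 2 of the 28 libraries, and mmp9.L and mmp11.S did not.

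Poly-A RNA of 14 whole tissues of untreated Xenopus laevis of the inbred J strain was sequenced without strand information, with 2 libraries per tissue. A first female gave the 13 tissues other than testis to the Ueno dataset, and a second female gave them to the Taira dataset. Each testis came from a male sibling of these females, so each dataset stands for 1 frog of each sex and there are no further replicates. Frog, dataset and library preparation cannot be told apart, and the frogs' ages are not given in the labels.

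The values are TPM, a level per transcript length and per library, so each library has the same total, a gene can be lower because others are higher, and the read depth is unknown. Between 24533 and 34388 models were above 0 in a library. Of 77 models on lists of organ markers, 72 had their highest mean in their own tissue. Some lists were also present outside their own tissue. Skin markers summed to 1625 TPM in the Ueno eye and 5566 TPM in the Taira eye. Stomach markers summed to 446 TPM in the Ueno pancreas and 855 TPM in the Taira pancreas. Muscle markers were also found in heart and eye. In whole tissue, fewer cells of a type and less RNA per cell cannot be told apart.

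The members showed 3 patterns. mmp1.L was a gene of the intestine, with all but a trace of its level there. mmp7.L, mmp7.S, mmp9.S and mmp13.S were highest in spleen and also high in lung, liver or kidney. mmp2.S, mmp14.L and mmp14.S were spread over most tissues, and mmp28 had peaks in skin, brain and kidney. Ovary had the lowest mean of 9 of the 12 models that passed the minimum. The share of all models that were lowest in ovary was not computed, so this count is not read as a trait of the family. Summed over all members, the ovary libraries held 3.99 TPM in Ueno and 14.7 TPM in Taira, against 1495 TPM in the Ueno spleen and 1340 TPM in the Taira spleen.

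**Figure D1:**
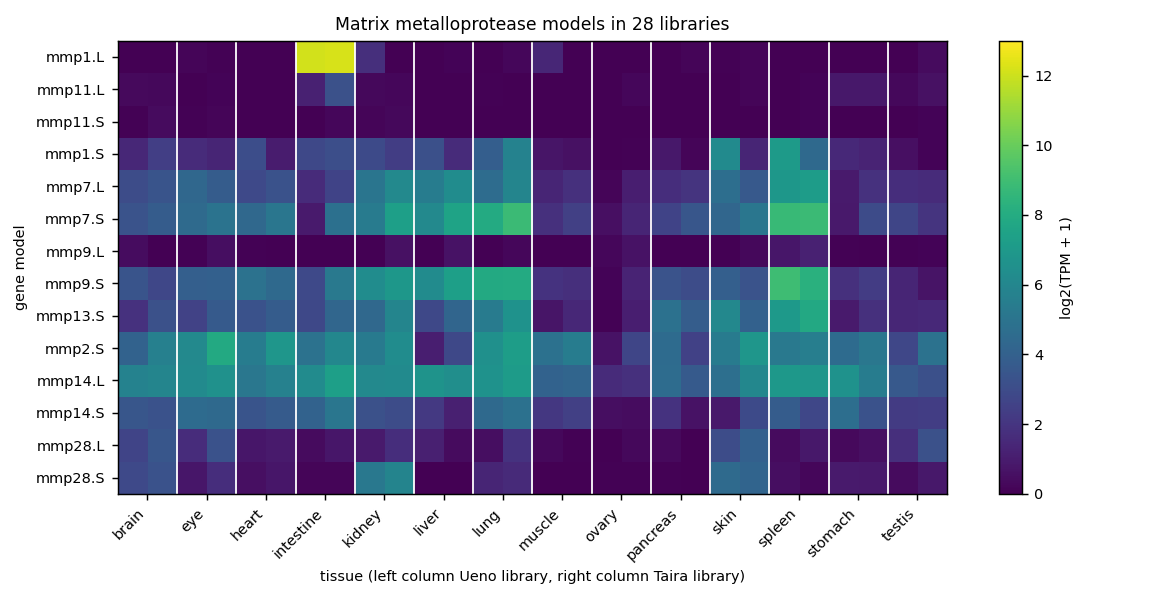
Level of each of the 14 protease models (rows) in the 28 libraries (columns, 2 per tissue, Ueno left and Taira right), as log2(TPM + 1) by colour. The bright cells of mmp1.L stand in both intestine libraries, the spleen and lung columns are bright for mmp7 and mmp9.S, and the ovary columns are dark throughout.

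mmp1 encodes interstitial collagenase, which in mammals cuts fibrillar collagens such as type I. RefSeq names match the symbol mmp1.L to mmp1.L and mmp8.L, so which gene this model describes is uncertain. mmp1.L (Xelaev18013828m) had 4472 TPM in the Ueno intestine and 4818 TPM in the Taira intestine, a mean of 4645 ± 245 TPM (SD, n = 2). The other 26 libraries averaged 0.195 TPM, and 16 of the 28 libraries were listed at 0. The highest of the others were the Ueno kidney at 2.35 TPM and the Ueno muscle at 1.62 TPM. Intestine thus held 99.9% of the sum of the 14 tissue means, and its libraries did not overlap those of any other tissue. Stomach, the neighbouring part of the gut, was listed at 0 in both libraries.

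Likeness was read among 15357 named non-member models whose highest tissue mean reached a set floor. Those whose tissue means lay closest to mmp1.L were dnajc22.L, abcg5.S and cdx1.S. Their Pearson r was 0.998, 0.997 and 0.997 over 14 tissues. cdx1 encodes a homeodomain protein of the intestinal epithelium, and abcg5 encodes a subunit of a sterol exporter of enterocytes and liver in mammals. For a gene of 1 tissue this measure reads little more than that tissue.

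The S copy, mmp1.S (Xelaev18016263m), did not share this pattern. It had 5.94 TPM in the Ueno intestine and 7.69 TPM in the Taira intestine. It was highest in spleen, with 135 TPM in Ueno and 20.6 TPM in Taira. In skin it had 73.2 TPM in Ueno and 1.52 TPM in Taira, whereas in lung it had 13.6 TPM in Ueno and 52.8 TPM in Taira. The frogs thus differed in which tissue came first, and spleen, skin and lung overlapped. The tissue means of the L and S copies had an r of 0.12 over 14 tissues.

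mmp13, the symbol of a model that RefSeq names match to either of 2 neighbouring genes, encodes collagenase 3, which in mammals cuts type II collagen and is made by cartilage and bone cells. mmp13.S (Xelaev18016257m) was highest in spleen, with 129 TPM in Ueno and 232 TPM in Taira, above every other library. Lung followed with 41.5 TPM in Ueno and 96.5 TPM in Taira. Kidney had 20.1 TPM in Ueno and 58.8 TPM in Taira, and skin had 67.1 TPM in Ueno and 15.6 TPM in Taira. Lung, skin and kidney overlapped. Skin was 1 of 2 female tissues, with pancreas, in which the Ueno library was the higher one. The nearest models were cxcl12.L, cysltr1.L and CXCL8d.S, with an r of 0.901, 0.895 and 0.895, and all of these encode chemokines or, for cysltr1, a receptor for leukotrienes. When TPM were rescaled by median-of-ratios or quantiles, pancreas took second place for mmp13.S behind spleen.

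mmp7 encodes matrilysin, a small protease without the hemopexin-like domain of most family members, which in mice activates defensins in the gut. RefSeq names match the symbol mmp7.S to MGC68994 and mmp13.S, so which gene this model describes is uncertain. mmp7.S (Xelaev18016256m) had 437 TPM in the Ueno spleen and 470 TPM in the Taira spleen. In lung it had 249 TPM in Ueno and 466 TPM in Taira. Spleen and lung overlapped, since the Taira lung lay between the spleen libraries. Liver followed with 68.6 TPM in Ueno and 185 TPM in Taira, and kidney with 41.9 TPM in Ueno and 160 TPM in Taira. These 4 tissues held 89.4% of the sum of the tissue means. Intestine was low in Ueno, at 0.94 TPM, and higher in Taira, at 26.6 TPM, and ovary was lowest with 0.47 TPM in Ueno and 1.55 TPM in Taira.

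mmp7.L (Xelaev18013821m) had a similar order at a lower level. Its spleen libraries, at 117 TPM in Ueno and 143 TPM in Taira, lay above all others. Liver had 42.4 TPM in Ueno and 78.2 TPM in Taira, and lung had 22.9 TPM in Ueno and 59.2 TPM in Taira. Liver, kidney and lung overlapped, and under median-of-ratios scaling liver stood above spleen. The models mmp7.L and mmp7.S had an r of 0.962 over 14 tissues, and of 0.978 over the 12 tissues other than spleen and lung.

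**Figure D2:**
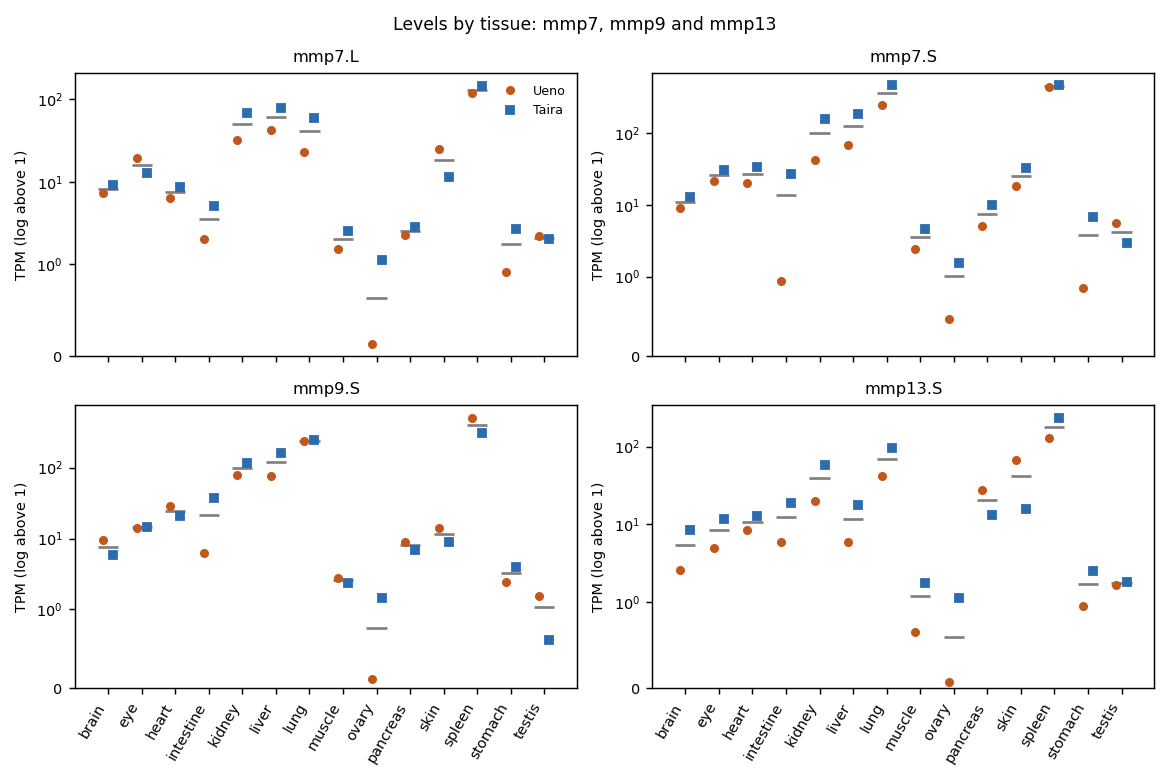
TPM of mmp7.L, mmp7.S, mmp9.S and mmp13.S by tissue, on an axis that is linear up to 1 TPM and logarithmic above it. Circles are Ueno libraries, squares are Taira libraries and bars are the mean of both; each of the 4 models has its highest mean in spleen, from 130 TPM for mmp7.L to 454 TPM for mmp7.S, and its lowest in ovary.

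The gelatinases mmp2 and mmp9 cut denatured collagen and type IV collagen of basement membranes. In mammals gelatinase B, the product of mmp9, is stored in neutrophil granules. mmp9.S (Xelaev18046526m) had 502 TPM in the Ueno spleen and 304 TPM in the Taira spleen, above all other libraries. Lung had 235 TPM in Ueno and 248 TPM in Taira, and did not overlap its neighbours in the order with TPM as deposited. Under median-of-ratios scaling liver stood above lung. Liver had 75.2 TPM in Ueno and 163 TPM in Taira, and kidney, which overlapped liver, had 77.7 TPM in Ueno and 118 TPM in Taira. These 4 tissues held 90.0% of the sum of the tissue means. mmp9.L (Xelaev18043860m) reached at most 1.26 TPM, in the Taira spleen, with 0.75 TPM in the Ueno spleen.

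Tissue means of mmp7.S and mmp9.S had an r of 0.969 over 14 tissues, and of 0.94 without spleen and lung. For mmp9.S and mmp13.S r was 0.879, and 0.77 without spleen and lung. The model nearest to mmp9.S was adam28.S, with an r of 0.986, and slurp1l.S was also among the nearest with 0.957. adam28.S, a membrane-bound metalloprotease known from lymphocytes in mammals, was also the nearest to mmp7.S with an r of 0.974, ahead of lyg2.S with 0.943 and plek.L with 0.938, of which plek encodes pleckstrin of platelets and leukocytes.

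These tissues also differed in their blood cell markers. The macrophage and granulocyte list rested on 2 of its 13 symbols, spi1 and ctss. Its 5 models summed to 1312 TPM in the Ueno spleen and 1415 TPM in the Taira spleen, to 384 TPM in the Ueno lung and 570 TPM in the Taira lung, and to 4.99 TPM in the Ueno ovary and 4.50 TPM in the Taira ovary. For r, each list was read as the mean log2(TPM + 1) of its models, with equal weight, and not as this sum. Over 14 tissue means the list had an r of 0.924 with mmp9.S, 0.895 with mmp7.L, 0.89 with mmp1.S, 0.888 with mmp7.S and 0.814 with mmp13.S. The lymphocyte list had 6 of 9 symbols found. Its r was 0.874 with mmp1.S, 0.814 with mmp9.S, 0.781 with mmp13.S, 0.77 with mmp7.S and 0.765 with mmp7.L. The erythrocyte list had 3 of 8 symbols found. Its r was 0.879 with mmp9.S, 0.876 with mmp7.S, 0.819 with mmp7.L, 0.63 with mmp1.S and 0.628 with mmp13.S. These lists share libraries and their own high tissues with the members, and their part in the members' levels was not tested. In intestine and skin the sum, there mainly of ctss, departed from mmp9.S. Intestine had macrophage and granulocyte sums of 442 TPM in Ueno and 685 TPM in Taira, on the level of lung, while mmp9.S had 6.34 TPM in the Ueno intestine and 37.2 TPM in the Taira intestine. In skin the sum had a mean of 337 TPM, against 338 TPM in liver, while mmp9.S had 14.1 TPM in the Ueno skin and 8.92 TPM in the Taira skin. The other marker, spi1, did not depart in this way. spi1.L had means of 14.3 TPM in intestine against 53.0 TPM in lung, and 5.45 TPM in skin against 23.4 TPM in liver. spi1.S was likewise lower in intestine than in lung, and lower in skin than in liver.

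The product of mmp2, gelatinase A, is made by connective tissue cells in mammals. mmp2.S (Xelaev18024696m) had 67.5 TPM in the Ueno eye and 240 TPM in the Taira eye. Lung had 90.4 TPM in Ueno and 152 TPM in Taira, heart had 43.2 TPM in Ueno and 114 TPM in Taira, and skin had 40.8 TPM in Ueno and 114 TPM in Taira. These first 4 tissues overlapped one another, and lung came first under both other scalings. Liver and ovary were low, with 1.10 TPM in the Ueno liver and 5.95 TPM in the Taira liver, and 0.55 TPM in the Ueno ovary and 5.62 TPM in the Taira ovary. The nearest models were col1a2.L, col6a1.L and podn.L, with an r of 0.966, 0.932 and 0.931, which encode collagen chains and a matrix proteoglycan.

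The fibroblast list, with 6 of 10 symbols found and 11 models, summed to 2387 TPM in the Ueno lung and 2520 TPM in the Taira lung, and to 889 TPM in the Ueno eye and 2004 TPM in the Taira eye. In liver it summed to 34.5 TPM in Ueno and 53.2 TPM in Taira. Its r with mmp2.S was 0.921 over 14 tissues. Since col1a2 is on this list, the list and the nearest model are not separate measures. The part of these cells in the level of mmp2.S was not tested.

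mmp14 encodes a membrane-type protease that, in mammals, activates the proenzyme of gelatinase A at the cell surface with the help of timp2. mmp14.L (Xelaev18007047m) was the most evenly spread member, above 1 TPM in all 28 libraries with a median of 61.5 TPM. It had 123 TPM in the Ueno spleen and 115 TPM in the Taira spleen, 97.5 TPM in the Ueno lung and 140 TPM in the Taira lung, and 77.1 TPM in the Ueno intestine and 159 TPM in the Taira intestine. Spleen, lung, intestine and liver each overlapped the next in the order, and liver came first after rescaling. Ovary was lowest with 1.99 TPM in Ueno and 2.48 TPM in Taira. The nearest models were mhc1a.L, lgals9b-like.L and ctss.S, with an r of 0.921, 0.919 and 0.918. mhc1a encodes a class I antigen-presenting molecule, and ctss encodes cathepsin S of antigen-presenting cells.

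mmp14.S (Xelaev18010241m) had 15.7 TPM in the Ueno intestine and 33.4 TPM in the Taira intestine, 20.4 TPM in the Ueno lung and 27.8 TPM in the Taira lung, and 22.5 TPM in the Ueno eye and 20.8 TPM in the Taira eye. Stomach had 25.0 TPM in Ueno and 8.67 TPM in Taira. None of these 4 separated from the next, and stomach came first after rescaling. Its tissue means had an r of 0.753 with mmp14.L and of 0.786 with mmp2.S. With the macrophage and granulocyte list, r was 0.85 for mmp14.L and 0.486 for mmp14.S. With the smooth muscle list it was 0.642 for mmp14.L and 0.78 for mmp14.S.

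mmp28 encodes epilysin, known from keratinocytes, lung and testis in mammals. mmp28.S (Xelaev18015307m) was highest in kidney, with 36.3 TPM in Ueno and 57.5 TPM in Taira. Skin had 21.4 TPM in Ueno and 17.2 TPM in Taira, and brain had 6.41 TPM in Ueno and 8.73 TPM in Taira. Kidney, skin and brain did not overlap. The nearest models were gda-like.L, slc13a5.S and errfi1.L, with an r of 0.957, 0.954 and 0.932, of which slc13a5 encodes a sodium-coupled citrate transporter.

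mmp28.L (Xelaev18012682m) was at most 2.29 TPM in kidney, in the Taira library, with 0.89 TPM in the Ueno library. It was highest in skin, with 7.12 TPM in Ueno and 14.6 TPM in Taira, then in brain with 5.24 TPM in Ueno and 10.1 TPM in Taira, and in testis with 2.34 TPM in Ueno and 8.50 TPM in Taira. Skin, brain, testis and eye overlapped. The copies had an r of 0.62 over 14 tissues.

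**Figure D3:**
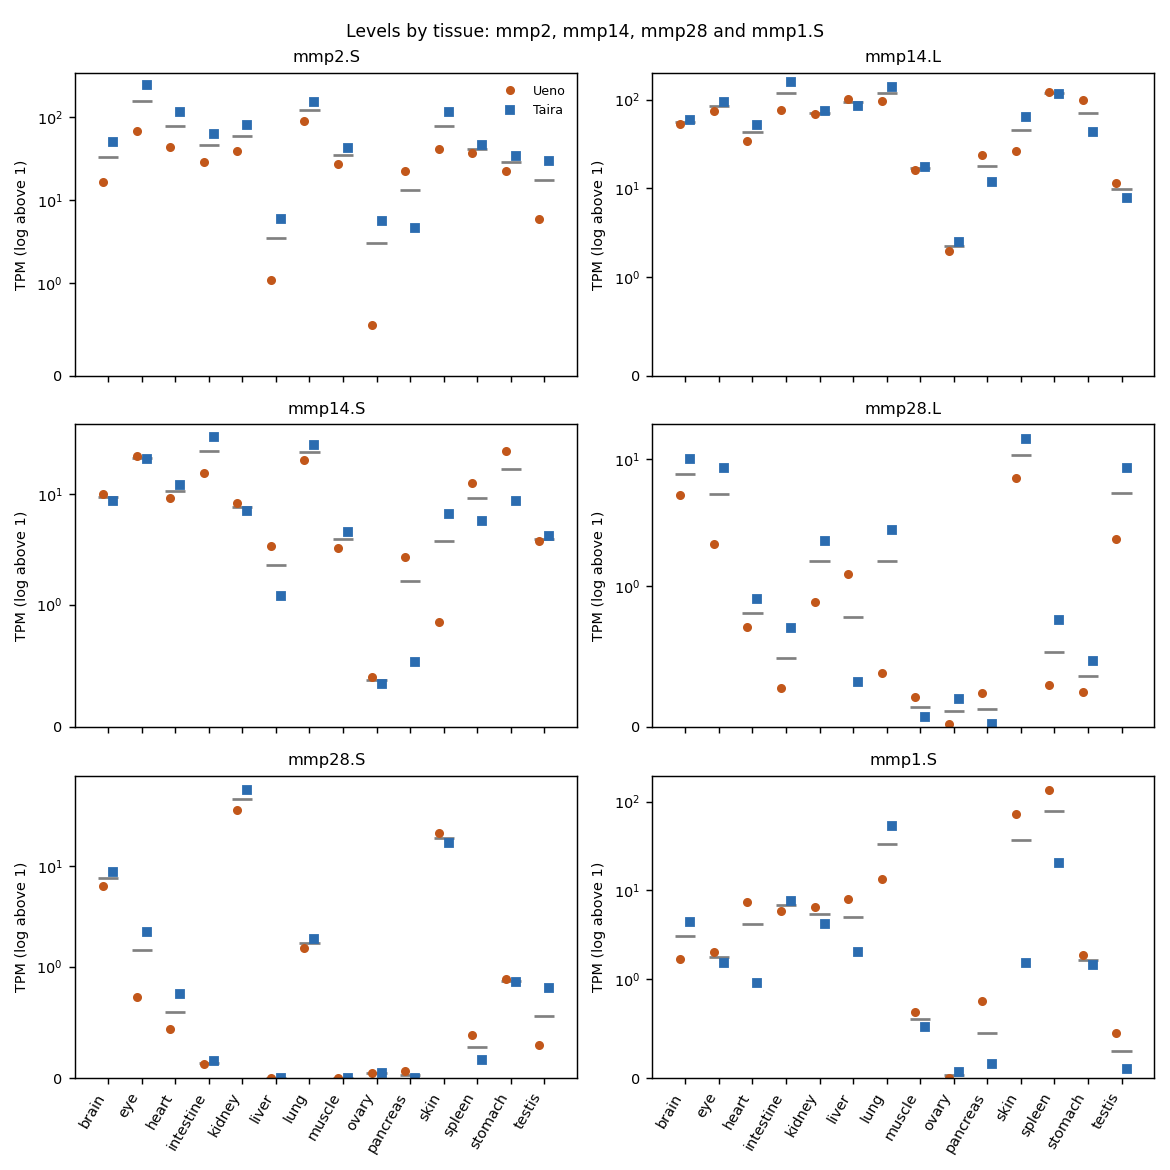
TPM of mmp2.S, mmp14.L, mmp14.S, mmp28.L, mmp28.S and mmp1.S by tissue, on an axis that is linear up to 1 TPM and logarithmic above it. Circles are Ueno libraries, squares are Taira libraries and bars are the mean of both; mmp14.L stays between 7.89 and 159 TPM outside the ovary, mmp28.S stands out in kidney, and mmp1.S differs between the frogs in skin and spleen.

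mmp11 encodes stromelysin 3, which is activated inside the secretory pathway and in tadpoles responds to thyroid hormone during remodelling of the intestine. In these adults mmp11.L (Xelaev18007631m) was low. It had 1.28 TPM in the Ueno intestine and 8.49 TPM in the Taira intestine, a mean of 4.88 ± 5.10 TPM (SD, n = 2), and 0.81 TPM in the Ueno stomach and 0.78 TPM in the Taira stomach. It thus passed the minimum through the intestine alone, and its nearest models, among them fbxo25.S and parp4.L with an r of 0.988 and 0.98, are read largely from that tissue. mmp11.S (Xelaev18010511m) reached 0.29 TPM at most, in the Taira brain.

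The L and S copies were then compared within each library. The members were picked by symbol and not by this ratio. The levels it is made from were known, however, so its p-values are not independent support. The tested value is the mean over 14 tissues of log2((L + 1)/(S + 1)), fitted with limma over 7749 pairs. All libraries counted as separate in this fit, although each dataset stands for 1 frog of each sex. Its p-values thus speak of these frogs and their libraries. Calls required both a mean of at least 1 in size and a p below 0.05 after Benjamini-Hochberg adjustment over the pairs. Among all pairs 15.6% were called higher for L and 8.19% higher for S. Of the 6 member pairs, 1 was called higher for L (mmp14) and 3 higher for S (mmp1, mmp7 and mmp9). The median was -0.53 over the 6 member pairs and 0.16 over all pairs. Each pair was made by its shared symbol. In the RefSeq names of the Xenopus_laevis_v10.1 assembly, the symbol mmp9.L matched mmp9.2.L and mmp9.S matched mmp9.1.S, mmp7.S matched MGC68994 and mmp13.S, and mmp1.L matched mmp1.L and mmp8.L. RefSeq places mmp3.L, mmp7.L, mmp20.L, mmp8.L, mmp1.L and mmp13l.L within 11 consecutive genes of chromosome 2L, and mmp13.S, mmp8.S, mmp1.S and mmp13l.S within 7 consecutive genes of chromosome 2S. RefSeq also lists mmp9.2.S on chromosome 9_10S as a gene apart from mmp9.1.S. By these names the mmp9 pair compares different genes of the family and not copies of the same gene. The pairs mmp1 and mmp7 may do so too. Reads of such similar genes can be split by the estimation, so these differences are uncertain. The count called higher for S and the member median include these pairs. The symbol mmp13.S likewise matched both mmp13.S and mmp13l.S, so which of these neighbours its levels describe is uncertain.

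mmp14 had the clearest bias among the member pairs. The L copy was higher in 28 of 28 libraries, by 2.50 on the log2 scale on average (SE 0.068, adjusted p = 2.07e-16 by limma). With 1 added to each value, the log2 ratio was smallest in testis, at 1.10, and in ovary, at 1.23. In ovary mmp14.L had 1.99 TPM in Ueno and 2.48 TPM in Taira, and mmp14.S had 0.41 TPM in Ueno and 0.35 TPM in Taira. At such low levels the added 1 shrinks the ratio, so the ovary value is not read as a weaker bias. In liver the ratio was 4.92, where mmp14.L had 102 TPM in Ueno and 85.3 TPM in Taira, against 3.41 TPM in Ueno and 1.2 TPM in Taira for mmp14.S.

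For mmp9, log2 L over S averaged -3.94 (SE 0.11, adjusted p = 3.01e-16 by limma), with S higher in 27 of 28 libraries. By the RefSeq names above, this is not a difference between copies of the same gene. The tissue mean was -7.80 in lung and -0.28 in ovary, where both copies were near 0. Since mmp9.L was at most 1.26 TPM in any library, this range mainly follows the level of mmp9.S. For mmp7, log2 L over S averaged -1.0015 (SE 0.13, adjusted p = 1.27e-06 by limma), with S higher in 25 of 28 libraries and by most in lung, at -3.17. Its size lay at the minimum, and leaving out 1 library took it under that minimum in 14 of 28 cases.

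For mmp1 the direction depended on the tissue, as it did for mmp28. Log2 L over S averaged -1.16 (SE 0.22, adjusted p = 0.00011 by limma), and S was higher in both libraries of 10 tissues. In intestine L was higher, by 9.22. Without the Ueno skin library the mean was -0.98, under the size minimum. mmp28 averaged -0.05 (SE 0.085, adjusted p = 0.574 by limma) and was not called, although it stood at -4.23 in kidney and 1.88 in testis. mmp11 averaged 0.26 (SE 0.066, adjusted p = 0.00163 by limma), under the size minimum, and was largest in intestine at 2.10 and stomach at 0.83.

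**Figure D4:**
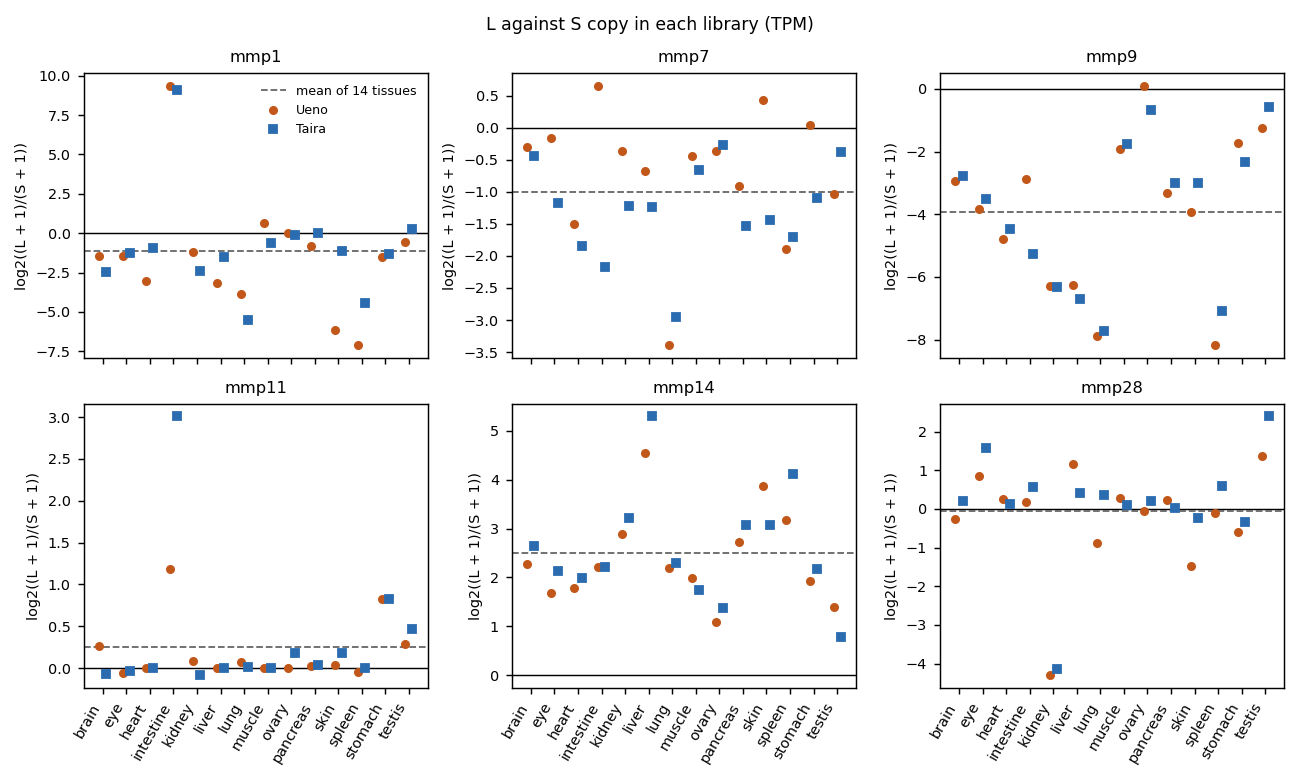
log2((L + 1)/(S + 1)) of the TPM of each member pair in each library, by tissue. Circles are Ueno libraries, squares are Taira libraries, the dashed line is the mean over 14 tissues and the solid line marks equal levels; mmp14 lies above 0 in all 28 libraries, mmp1 is far above 0 in intestine, and mmp28 is far below 0 in kidney.

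The frogs were compared over the 26 libraries of the 13 female tissues, with limma on log2(TPM + 1), tissue as a block and the same thresholds. The tissues serve as repeats of 1 frog per dataset, so a p-value here speaks of these frogs and their libraries. Over all 33317 models tested, 0.648% were called higher in Ueno and 9.93% lower in Ueno. Of the 12 members, 0 were called higher and 1 was called lower, mmp7.S. At an unadjusted p under 0.05 the counts were 0 higher and 5 lower, against 9.41% higher and 39.9% lower over all models. The median difference was -0.21 over the 12 members and -0.22 over all models, close to each other. Under median-of-ratios scaling the median of all models was -0.02, and 47.8% of the calls were then higher in Ueno, against 6.13% with TPM as deposited. Under quantile normalization those values were 0.01 and 37.7%.

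mmp7.S was lower in Ueno in 13 of 13 female tissues, by a mean log2 difference of -1.16 (SE 0.25, adjusted p = 0.00222 by limma). The difference was -3.83 in intestine and -0.11 in spleen. The call did not survive every setting. Without either intestine library the difference was -0.93, and it was -0.81 (adjusted p = 0.0197) under median-of-ratios scaling and -0.94 (adjusted p = 0.00557) under quantile normalization, all under the size minimum. Over the same tissues the erythrocyte marker sum was lower in Ueno in 12 of 13, the lymphocyte and endothelium sums in 12 of 13 each, the fibroblast sum in 10 of 13 and the macrophage and granulocyte sum in 8 of 13. The epithelium sum was lower in Ueno in 7 of 13 and the smooth muscle sum in 5 of 13. The endothelium list had an r of 0.76 with mmp7.S over 14 tissue means. Their part in the difference was not tested.

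mmp2.S was lower in Ueno in 12 of 13 female tissues, with a mean log2 difference of -0.95 (SE 0.26, adjusted p = 0.0103 by limma), just under the size minimum. The exception was pancreas, with 22.1 TPM in Ueno and 4.65 TPM in Taira. There the fibroblast sum was 176 TPM in Ueno and 90.9 TPM in Taira, whereas in skin it was 480 TPM in Ueno and 2902 TPM in Taira. Over the 13 female tissues this sum was lower in Ueno in 10. In ovary and spleen it went the other way from mmp2.S, with 27.0 TPM in the Ueno ovary and 21.7 TPM in the Taira ovary, and 618 TPM in the Ueno spleen and 587 TPM in the Taira spleen. Its part in the difference was not tested. Without the pancreas libraries the difference was -1.20, and without either spleen library -1.0021, both called.

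mmp13.S and mmp7.L had an adjusted p under 0.05 with small differences, of -0.70 (adjusted p = 0.0486) and -0.47 (adjusted p = 0.0471). mmp28.L had -0.45 (adjusted p = 0.0537). mmp1.S was the member with the widest range, from -1.89 in lung to 4.88 in skin. Its mean difference of 0.75 (SE 0.43, adjusted p = 0.177) was not called with TPM as deposited, but it was called under median-of-ratios scaling, at 1.11 (adjusted p = 0.0424), and under quantile normalization, at 1.1998 (adjusted p = 0.0354). In skin the macrophage and granulocyte sum was 417 TPM in Ueno and 257 TPM in Taira, while in spleen, where mmp1.S was also higher in Ueno, it was 1312 TPM in Ueno and 1415 TPM in Taira. Its part in the difference was not tested. mmp9.S had -0.23 (adjusted p = 0.427) and mmp14.L had -0.15 (adjusted p = 0.518), and under median-of-ratios scaling both signs turned.

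**Figure D5:**
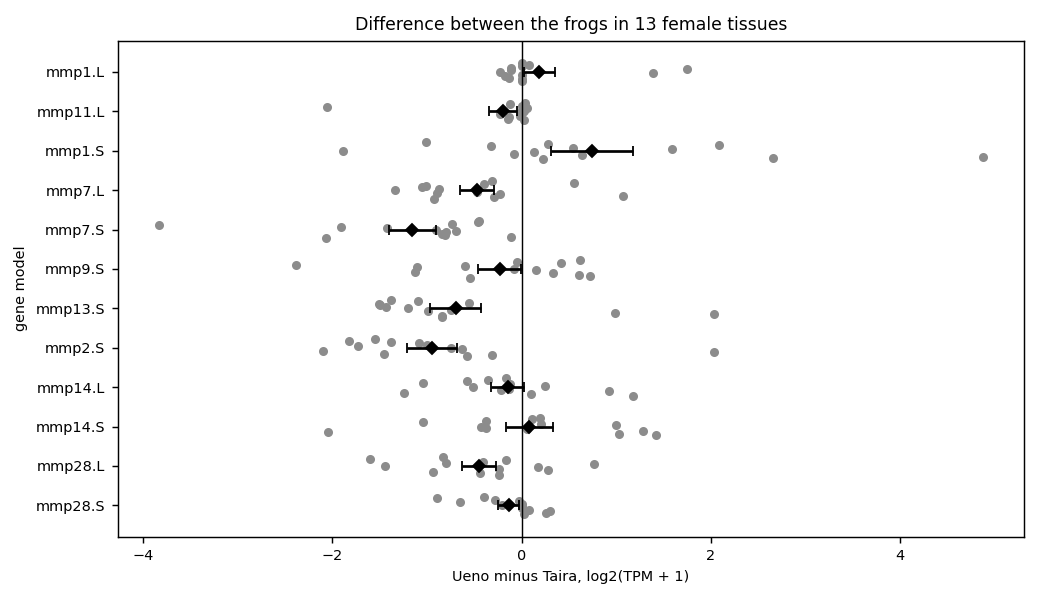
Ueno minus Taira difference in log2(TPM + 1) of the 12 members that passed the minimum. Grey points are the 13 female tissues, and the diamond and bar are the fitted mean and its standard error; all points of mmp7.S lie below 0, and mmp1.S spans from -1.89 to 4.88.

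The rest of the pathway was read from lists of genes that are no members. Each tissue was compared with the mean of the other 13 by limma, with p-values adjusted over all models and tissues together and a log2 difference of at least 1. Here too the libraries of 1 female counted as separate, so the p-values speak of these frogs. The lists were chosen with earlier results of these data known, and the named models were picked for the size of their difference. Their p-values are therefore given as description and are not independent support. Over all models tested, 84.9% were called higher in at least 1 tissue and 57.5% lower in at least 1, so a call by itself was common. Among the other metalloproteases, 12 of the 14 models in the table passed the minimum. All 12 of these were called higher in some tissue and 7 were called lower in some tissue, and the median of their largest differences was 2.92, against 2.36 over all models.

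Of these, mmp25.S, whose product is a membrane-anchored protease of leukocytes in mammals, had 144 TPM in the Ueno spleen and 121 TPM in the Taira spleen, against a mean of 2.70 TPM in the other tissues. The difference was 5.49 (SE 0.30, adjusted p = 1.35e-10 by limma). The next 4 by size were all brain genes. mmp17.S differed by 3.85 (SE 0.15, adjusted p = 1.89e-12) and mmp17.L by 3.80 (SE 0.22, adjusted p = 3.51e-10), with means in brain of 18.4 TPM and 19.6 TPM. mmp24.L differed by 3.77 (SE 0.42, adjusted p = 2.24e-06) and mmp24.S by 3.27 (SE 0.28, adjusted p = 6.75e-08). mmp17 and mmp24 encode membrane-anchored proteases, and mmp24 is known from neurons in mammals. No member had its highest mean in brain.

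The list of activators and inhibitors had 20 models tested, of which 19 were called higher and 13 lower in some tissue. a2m.S, which encodes alpha-2-macroglobulin, had 192 TPM in the Ueno liver and 1305 TPM in the Taira liver, against 11.3 TPM in the other tissues (difference 6.51, adjusted p = 1.17e-08 by limma). serpinf2, the plasmin inhibitor, was also higher in liver, by 6.12 for the S copy (adjusted p = 6.69e-07) and 5.60 for the L copy (adjusted p = 2.84e-07). thbs1.L, which encodes thrombospondin, was lower in ovary, with a difference of -4.43 (adjusted p = 0.000296).

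Of 36 models of matrix substrates, 33 were called higher and 27 lower in some tissue. Fibronectin was highest in lung, where fn1.S averaged 775 ± 273 TPM (SD, n = 2) and differed by 5.35 (adjusted p = 1.14e-07 by limma), and fn1.L differed by 4.57 (adjusted p = 1.97e-06). Both copies were also called higher in liver, fn1.S by 4.11 and fn1.L by 1.41, and fn1.L in heart by 2.14. vtn.L, for vitronectin, was higher in liver by 8.65 (adjusted p = 7.36e-15), and nid2.L, for the basement membrane protein nidogen, was higher in spleen by 5.75 (adjusted p = 4.50e-06). col3a1.S, a fibrillar collagen chain, was lower in ovary, with 1.54 TPM in Ueno and 3.12 TPM in Taira and a difference of -5.02 (adjusted p = 6.16e-06). Ovary was the lowest tissue of most members that passed the minimum. Among the other metalloproteases, 4 models were called lower in ovary. Another 2 were called higher there, mmp15.L by 1.82 and mmp15.S by 1.09. The share of all models lowest in ovary, or called there, was not computed, so these counts are not read as a trait of the family or its pathway.

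Of 28 models of the related ADAM and ADAMTS families tested, 22 were called higher and 11 lower in some tissue, with a median largest difference of 1.66. adam11.S and adam11.L were higher in brain by 5.97 (adjusted p = 2.01e-14 by limma) and 5.39 (adjusted p = 2.36e-10), and adam19.S by 3.69 (adjusted p = 3.94e-11). adam28.S, nearest in pattern to mmp7.S and mmp9.S, had 147 TPM in the Ueno spleen and 73.4 TPM in the Taira spleen and was higher there by 4.30 (adjusted p = 1.32e-07). adam9.S was higher in ovary by 2.81 (adjusted p = 3.31e-07).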

How the data were processed

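The authors deposited 1 table of TPM per gene model. Per the submitters' processing notes BWA 0.7.10 and RSEM 1.2.19 were used, and the labels name a set of cDNA models. RSEM shares reads among similar models, so close copies are uncertain, and without strand information overlapping genes cannot be told apart. Every column matched 1 sample's label. Models with at least 1 TPM in at least 2 of 28 libraries were kept. log2(TPM + 1) was tested with limma 3.58.1 in R 4.3.3, with a variance trend and Benjamini-Hochberg adjustment over all models or pairs. A difference thus understates the change of low genes. The tests were run on simulated data with independent noise in each library, which cannot show the effect of tissues sharing a frog. Calls required an adjusted p below 0.05 with a size of 1 or more on the log2 scale. Samples of 1 dataset come from 1 female, per the series' design, except testis, so the frog comparison was blocked by tissue. For each other list, the text names the 5 models with the largest difference whose libraries in that tissue lay apart from all others. For likeness the candidates were non-member models with a gene name that passed the minimum and a higher floor on the tissue mean. Of these the text names the 3 models with the highest r, leaving out an unnamed placeholder. A few genes that these rules name are not reported here. Symbols of 14 models were looked up in RefSeq names, and 13 had a match. The members and lists were chosen with earlier results of these data known. Alternatives were another pseudocount, filter, scaling, variance model, block or size minimum, and leaving out libraries. No sequences are shown, since none were used here.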

Additional observations from a re-analysis of the deposited data

Results flagged for a closer look

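In 2 pairs L was higher by over 1 on the log2 scale in both libraries of a tissue, and S by over 1 in both libraries of another. For mmp1, the mean log2 ratio of L over S was 9.22 in intestine and -5.76 in spleen. For mmp28, it was 1.88 in testis and -4.23 in kidney. These differences between tissues were not tested, and the testis libraries came from males whereas the kidney libraries came from females.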

How the results depend on the processing

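The count of 1 member called between the frogs was 2 with a pseudocount of 0.1, 0 with a pseudocount of 5, 2 with testis added, 0 with no replicate block, 4 with no size minimum, and 2 with both pancreas libraries left out, an alternative chosen after seeing the data. It ranged from 0 to 2 when 1 library was left out, with 0 without either intestine library and 2 without either pancreas or spleen library. It stayed 1 under both rescalings, but that member was mmp1.S and not mmp7.S. The share of all models or pairs called is given here only for the main setting and for rescaling. Counts under the other settings thus show how far calls depend on the setting, and are not read as a result about the members or lists. Blocking by tissue follows from the shared female, and without it the adjusted p of mmp7.S was 0.698. The 4 called pairs were 2 with a pseudocount of 5, where mmp1 had -0.28 and mmp7 had -0.82. The 7 other metalloproteases called lower in a tissue were 11 with a pseudocount of 0.1 and 3 with a pseudocount of 5. With the replicate block, the dataset as a term, member pairs stayed at 4 called, other metalloproteases at 12 higher and 7 lower, and the pathway models called were 82 higher and 64 lower, against 74 and 51 without it. Small values turned sign: L over S of mmp28 was 0.32 with a pseudocount of 0.1, and the Ueno minus Taira differences under median-of-ratios scaling were 0.27 for mmp14.L, 0.040 for mmp28.S and 0.13 for mmp9.S, and under quantile normalization 0.14 for mmp28.S and 3.25e-06 for mmp9.S. That of mmp14.S ranged from -0.030 to 0.26 when 1 library was left out, below 0 without a stomach or pancreas library, and was -0.018 with both pancreas libraries left out. Of the ADAM and ADAMTS models, 12 with a pseudocount of 5 and 13 with a minimum of 5 TPM were called higher, and 17 with a pseudocount of 0.1 and 7 with a pseudocount of 5 were called lower. Of the activators and inhibitors, 20 were called lower with a pseudocount of 0.1. The cause of these changes was not tested. Of 1125 values computed under alternatives, 1057 were taken as unchanged. For a difference or ratio this meant the same direction and side of the threshold. For a count it meant only staying within a set fold range of the main count. TPM keep no depth, so the counting error of levels near 0 is unknown.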

Other observations

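The table holds a pair of models named mmp19-like that the family list, fixed by symbol, did not take in, and they were chosen for this paragraph after their values were seen. mmp19-like.2.L was a liver gene, with 165 TPM in the Ueno liver and 117 TPM in the Taira liver. Its next tissue was brain, with 4.80 TPM in Ueno and 2.83 TPM in Taira. mmp19-like.1.L was highest in testis, with 227 TPM in Ueno and 89.3 TPM in Taira, followed by liver with 67.3 TPM in Ueno and 17.8 TPM in Taira. With both added, 14 other family models were called higher and 8 lower in at least 1 tissue. Of the members that passed the minimum, mmp28.L had testis among its 3 highest tissues at over 1 TPM.

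The sum of the members' levels in intestine was 4617 TPM in Ueno and 5178 TPM in Taira. Without mmp1.L it was 145 TPM in Ueno and 360 TPM in Taira, below the 773 TPM of the Ueno lung and the 1248 TPM of the Taira lung.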
